A study of Mus musculus with 34 samples.

Results

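Acyl-CoA dehydrogenases carry out the first reaction of each turn of mitochondrial beta-oxidation, and the electron transfer flavoprotein (ETF) system takes the electrons they remove. The set described here holds 7 genes, chosen by name: Acadvl, Acadl, Acadm and Acads, which encode the dehydrogenases for very-long, long, medium and short acyl chains, Etfa and Etfb, which encode the alpha and beta subunits of ETF, and Etfdh, which encodes the ETF dehydrogenase. They were 7 of 15930 genes tested, read by 8 of the 55681 probes of the array, and each was well above background on all 34 arrays. No spot of these probes was saturated.

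Each dehydrogenase oxidises an acyl-CoA to an enoyl-CoA and leaves the electrons on its bound FAD. ETF, a soluble heterodimer of the matrix, collects electrons from these enzymes and from dehydrogenases of amino acid and choline breakdown, and the ETF dehydrogenase of the inner membrane passes them to ubiquinone and so to the respiratory chain. In liver this pathway supplies energy and ketone bodies in fasting, and many of its genes are known targets of the nuclear receptor PPARA, which binds DNA with RXR at repeats of a hormone response half-site.

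Liver RNA from 34 male C57Bl/6J mice, 14 weeks old, was hybridised to one-colour Agilent arrays, 1 mouse per array. The mice had been gavaged daily for 10 days with fenofibrate, a fibrate whose acid form activates PPARA, at 100 mg per kg per day, or with the vehicle, gum arabic at 3%, and were killed at zeitgeber time 14. All were kept under a light and dark cycle on chow. The 8 groups were whole-body Ppara knockouts (KO) on fenofibrate (5 mice) or vehicle (3 mice), wild-type mice (WT) on fenofibrate (4 mice) or vehicle (4 mice), liver Ppara knockouts (LKO) on fenofibrate (5 mice) or vehicle (4 mice), and the liver wild-type line (LWT) on fenofibrate (5 mice) or vehicle (4 mice).

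The Cre driver of the liver knockout, the alleles LWT mice carry and the deleted stretch of Ppara are not stated in the sources used here. A probe outside that stretch checks nothing about the deletion. Ppara itself read 6.11 ± 0.09 in LKO mice and 7.03 ± 0.23 in LWT mice on vehicle (SD, n = 4 each), and 5.34 ± 0.27 in KO mice (n = 3) and 7.02 ± 0.20 in WT mice (n = 4) on vehicle. All levels are log2 intensities from which the array's own 75th percentile was subtracted, and levels of different probes are not compared. Between 28188 and 35167 probes per array were well above background, replicates of a group correlated at 0.979 to 0.994 across probes, and the number of arrays limits the precision. The 8 hepatocyte markers (Alb, Ttr, Apoa1, Apob, Serpina1c, Tat, Cps1 and Hnf4a) were above background on every array, and their summed level lay between 12.3 and 12.8. Here and below, marker levels were summed on the linear scale and the sum is given as log2. The brightest markers thus weigh most, and a sum can differ between groups where its markers do not all do so. In bulk liver, fewer cells of a type and less RNA per cell cannot be told apart. The 3 arrays of slide 1 (1 KO fenofibrate, 1 KO vehicle and 1 WT vehicle mouse) stood apart in the authors' value table. Changes without them are given for Acadm in KO against WT and for Etfdh in WT against LWT, both on vehicle. For Acadm the difference between its KO and LKO changes on vehicle is also given without them. Other fitted changes that use these mice are given only with them.

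The probes lie on mm9 within chr11:69823722-69823781 for Acadvl, chr1:66877673-66877732 for Acadl, chr3:153585670-153585729 for Acadm and chr5:115560887-115560946 for Acads, all on the minus strand. Etfb is read at chr7:50713092-50713151 on the plus strand and Etfdh at chr3:79407806-79407865 on the minus strand. Etfa has 2 probes, at chr9:55309428-55309487 and chr9:55343560-55343619 on the minus strand, and the brighter, which is the first, stands for the gene. The sources used here name no exon for these probes. Both Etfa probes are shown because they are the only pair that reads 1 member at separate places, and capitals mark the whole probe.
Etfa, brighter probe: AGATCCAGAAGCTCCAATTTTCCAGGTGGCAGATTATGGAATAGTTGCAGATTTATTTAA
Etfa, dimmer probe: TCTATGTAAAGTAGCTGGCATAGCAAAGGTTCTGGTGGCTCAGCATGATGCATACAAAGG

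The promoter windows of all 7 genes were read from RefSeq, build GRCm38.p6, from 250 bases before the start to 50 bases after it. Each was searched on both strands for the half-site AGGTCA and for DR1, a repeat of that half-site in the same direction with any 1 base between, with up to 3 mismatches. An exact half-site was found in 2 of 7 windows, Acadm and Acadvl, against 16.3% of 32851 windows in the reference. DR1 was found in 3 of 7 windows, Acadm, Etfa and Etfb, against 24.6%, and 1 of the 3 DR1 matches of Acadm holds its half-site. The extended half-site, in which TCA precedes AGGTCA, was allowed 1 mismatch and was found in 0 of 7 windows, against 7.46%. A match here is a description of letters and not a bound site. The windows of 3 genes are shown: Acadm, with the largest response to the drug, Etfa, with the smallest response and the DR1 match of fewest mismatches (2), and Etfdh, with the largest difference in the knockouts. Capitals mark DR1 matches, and the Acadm, Etfa and Etfdh windows are chr3:153944594-153944893, chr9:55512194-55512493 and chr3:79628718-79629017, all on the minus strand.
Acadm: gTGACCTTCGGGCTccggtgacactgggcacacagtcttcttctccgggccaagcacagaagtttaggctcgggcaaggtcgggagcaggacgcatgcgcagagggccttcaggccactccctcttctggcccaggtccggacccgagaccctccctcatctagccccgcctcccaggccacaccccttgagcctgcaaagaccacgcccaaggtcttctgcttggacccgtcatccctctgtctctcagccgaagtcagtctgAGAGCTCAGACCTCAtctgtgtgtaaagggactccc
Etfa: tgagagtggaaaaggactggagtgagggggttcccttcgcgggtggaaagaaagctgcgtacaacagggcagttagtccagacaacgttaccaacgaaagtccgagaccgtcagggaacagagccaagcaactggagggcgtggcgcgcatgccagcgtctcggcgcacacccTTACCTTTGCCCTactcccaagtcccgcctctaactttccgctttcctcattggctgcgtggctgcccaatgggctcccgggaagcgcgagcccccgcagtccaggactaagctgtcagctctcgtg
Etfdh: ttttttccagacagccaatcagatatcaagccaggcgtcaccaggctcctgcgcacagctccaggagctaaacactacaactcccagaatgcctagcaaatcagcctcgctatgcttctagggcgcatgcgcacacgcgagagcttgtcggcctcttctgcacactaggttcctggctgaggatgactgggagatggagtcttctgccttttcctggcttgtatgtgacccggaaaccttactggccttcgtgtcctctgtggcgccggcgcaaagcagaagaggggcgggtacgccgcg
In the Acadm window the first stretch in capitals, on the opposite strand at position -249 from the start, holds the exact half-site. The Etfa match lies at -77 on the opposite strand. No stretch of the Etfdh window is in capitals, which says only that these letters are not in it.

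Fenofibrate raised all 7 genes in both control lines, WT and LWT, most for Acadm and least for Etfa. In WT mice 7 of 7 passed the test, where 10.1% of all genes tested were called higher, and in LWT mice 7 of 7 passed, where 10% were. The median log2 change of the 7 was 0.57 in WT mice and 0.55 in LWT mice, against all-gene medians within 0.01 of 0. In 7 of 7 genes every fenofibrate mouse lay above every vehicle mouse of its line, in WT as in LWT, which held for 12.6% of all genes in WT and 10.8% in LWT. The p values come from limma, are two-sided, and carry a Benjamini-Hochberg adjustment for 15930 genes, with 0.05 as the threshold. Errors of changes are standard errors (SE).

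**Figure D1:**
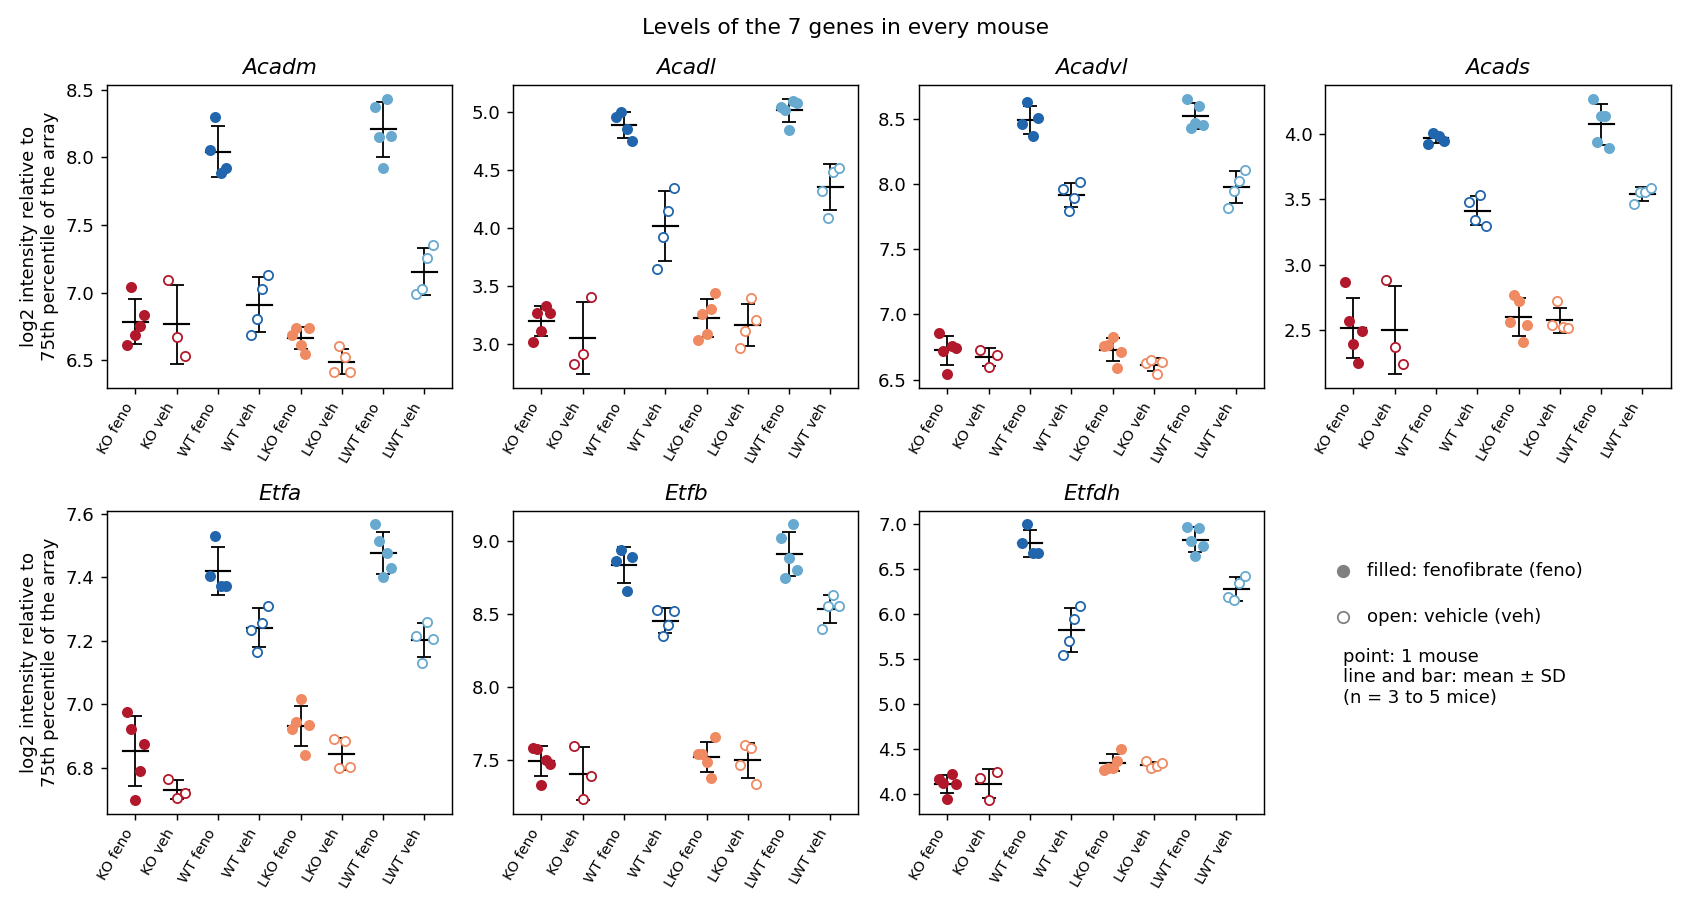
Log2 intensity minus the array's own 75th percentile (vertical axes, a separate scale per gene) of the 7 genes in each of 34 mice. Points are mice, and lines and bars are means and SD; both knockouts lie low for every gene, and in 6 of 7 genes no mouse of the WT and LWT lines reaches down to the highest knockout mouse, Acadm being the exception.

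Among the dehydrogenases, Acadm, which takes medium chains, changed most. It read 8.06, 8.30, 7.88 and 7.92 in WT mice on fenofibrate, against 6.69, 6.80, 7.02 and 7.13 in WT mice on vehicle. In LWT mice it read 8.37, 8.15, 7.92, 8.43 and 8.15 on fenofibrate, against 6.99, 7.03, 7.25 and 7.35 on vehicle. The lowest treated mouse of either line was well above the highest untreated one. The log2 change was 1.13 ± 0.13 in WT mice (adjusted p = 1.09e-07, 2.19-fold) and 1.05 ± 0.12 in LWT mice (adjusted p = 1.34e-07, 2.07-fold).

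Acadl, the long-chain enzyme, read 4.96, 5.00, 4.86 and 4.75 in WT mice on fenofibrate, against 3.64, 3.92, 4.15 and 4.35 in WT mice on vehicle. In LWT mice it read 5.04, 5.02, 4.84, 5.10 and 5.08 on fenofibrate, against 4.32, 4.08, 4.48 and 4.52 on vehicle. The vehicle mice were the more scattered in both lines. The log2 change was 0.88 ± 0.13 in WT (adjusted p = 1.48e-05) and 0.67 ± 0.13 in LWT (adjusted p = 0.00033).

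Acadvl, the membrane-bound enzyme for very long chains, averaged 8.49 ± 0.11 in WT mice on fenofibrate and 7.91 ± 0.10 in WT mice on vehicle (SD, n = 4 each), a change of 0.57 ± 0.08 (adjusted p = 1.8e-06). Acads, the short-chain enzyme, averaged 3.97 ± 0.03 in WT mice on fenofibrate and 3.41 ± 0.11 in WT mice on vehicle (SD, n = 4 each), a change of 0.56 ± 0.12 (adjusted p = 0.000875). These enzymes of opposite ends of the chain-length range thus changed by nearly the same amount, with a difference of 0.02 between their changes in WT and 0.01 in LWT. In LWT mice Acadvl changed by 0.55 ± 0.07 and Acads by 0.54 ± 0.11, with adjusted p of 1.98e-06 and 0.000887.

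The subunits of ETF hand electrons on from the dehydrogenases. Etfb averaged 8.84 ± 0.12 in WT mice on fenofibrate and 8.46 ± 0.08 in WT mice on vehicle (SD, n = 4 each), a log2 change of 0.38 ± 0.09 (adjusted p = 0.00258). In LWT mice its change was 0.38 ± 0.09 (adjusted p = 0.00214).

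Etfa, the partner subunit, had the smallest fitted change of the 7 in both lines. It read 7.40, 7.53, 7.37 and 7.37 in WT mice on fenofibrate, against 7.24, 7.17, 7.26 and 7.31 in WT mice on vehicle. In LWT mice it read 7.57, 7.51, 7.40, 7.48 and 7.43 on fenofibrate, against 7.22, 7.13, 7.26 and 7.21 on vehicle. The groups did not overlap, but in WT the gap was narrow. The change was 0.18 ± 0.06 in WT (adjusted p = 0.0347, 1.13-fold) and 0.27 ± 0.06 in LWT (adjusted p = 0.00103, 1.21-fold). The WT call was lost in 7 of 12 other settings and without any 1 of 5 mice (WT vehicle replicates 1, 2 and 3 and WT fenofibrate replicates 1 and 2), with adjusted p up to 0.26. The dimmer Etfa probe gave 0.17 ± 0.11 in WT (adjusted p = 0.297) and 0.32 ± 0.10 in LWT (adjusted p = 0.0309), in a fit over 31058 probes.

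Etfdh, which hands the electrons to ubiquinone, read 6.80, 7.0, 6.68 and 6.68 in WT mice on fenofibrate, against 5.55, 5.70, 5.94 and 6.09 in WT mice on vehicle. In LWT mice it read 6.97, 6.81, 6.65, 6.96 and 6.76 on fenofibrate, against 6.19, 6.16, 6.35 and 6.43 on vehicle. The treated mice of both lines reached the same range, while the untreated WT mice were lower than the untreated LWT mice. The change was 0.97 ± 0.10 in WT (adjusted p = 4.11e-08) and 0.55 ± 0.10 in LWT (adjusted p = 0.000119). The WT change minus the LWT change was 0.42 ± 0.14, with an unadjusted p of 0.00577 and an adjusted p of 0.978. In that comparison 0 of 7 genes and 0% of all genes passed, 680 of 15930 having an unadjusted p under 0.05.

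Whether the 7 genes changed by unequal amounts was tested for the 21 pairs in each line by an exact two-sided permutation test on the within-mouse difference of the 2 probes, adjusted over all 42. None passed. The smallest attainable p, 0.0286 in WT and 0.0159 in LWT, was reached by 13 and 11 pairs and gave an adjusted p of exactly 0.05 and not less. That adjusted p depends on how many of the 42 pairs reach the smallest p, so a count of 0 does not show equal change. For 13 pairs in WT and 11 in LWT the within-mouse differences did not overlap between fenofibrate and vehicle mice, and 10 pairs were the same in both lines with the same sign. The Acadm change exceeded the Etfa change by 0.95 in WT and 0.78 in LWT, and the Etfdh change by 0.16 in WT and 0.50 in LWT. With the mean of all detected probes of a gene, which among the 7 alters only Etfa, 14 pairs in WT and 13 in LWT passed. The number of passes thus turns on small changes in the values.

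In the knockouts none of the 7 was called with fenofibrate. In LKO mice 0 of 7 passed, as did 0% of all genes tested. An unadjusted p under 0.05 was found there for 0 of 7, and for 921 of all 15930 genes. In KO mice 0 of 7 passed, where 0.0126% of all genes did. At an unadjusted p under 0.05 it was again 0 of 7, and 1879 of 15930 genes. With shares this small among all genes, 0 of 7 at the unadjusted threshold sets the 7 apart from other genes in neither line. Acadm read 6.69, 6.74, 6.61, 6.55 and 6.74 in LKO mice on fenofibrate, against 6.41, 6.60, 6.52 and 6.42 in LKO mice on vehicle. It read 6.61, 7.04, 6.69, 6.75 and 6.83 in KO mice on fenofibrate, against 7.09, 6.67 and 6.53 in KO mice on vehicle. The groups overlapped in both. Its change was 0.18 with a 95% interval of -0.07 to 0.42 in LKO, and 0.02 with an interval of -0.24 to 0.29 in KO. Within slides, the Acadm change in KO mice was -0.48 on slide 1, 0.23 on slide 2 and 0.27 on slide 5, with 1 vehicle mouse on each. The fitted KO value near 0 thus combines slides of opposite sign. Without the arrays of slide 1, 0 of 7 genes were called with the drug in KO mice. Changes of the other 6 genes ran from 0.02 to 0.12 in LKO and from -0.00 to 0.15 in KO, and the upper ends of the 14 intervals, Acadm included, reached at most 0.43.

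**Figure D2:**
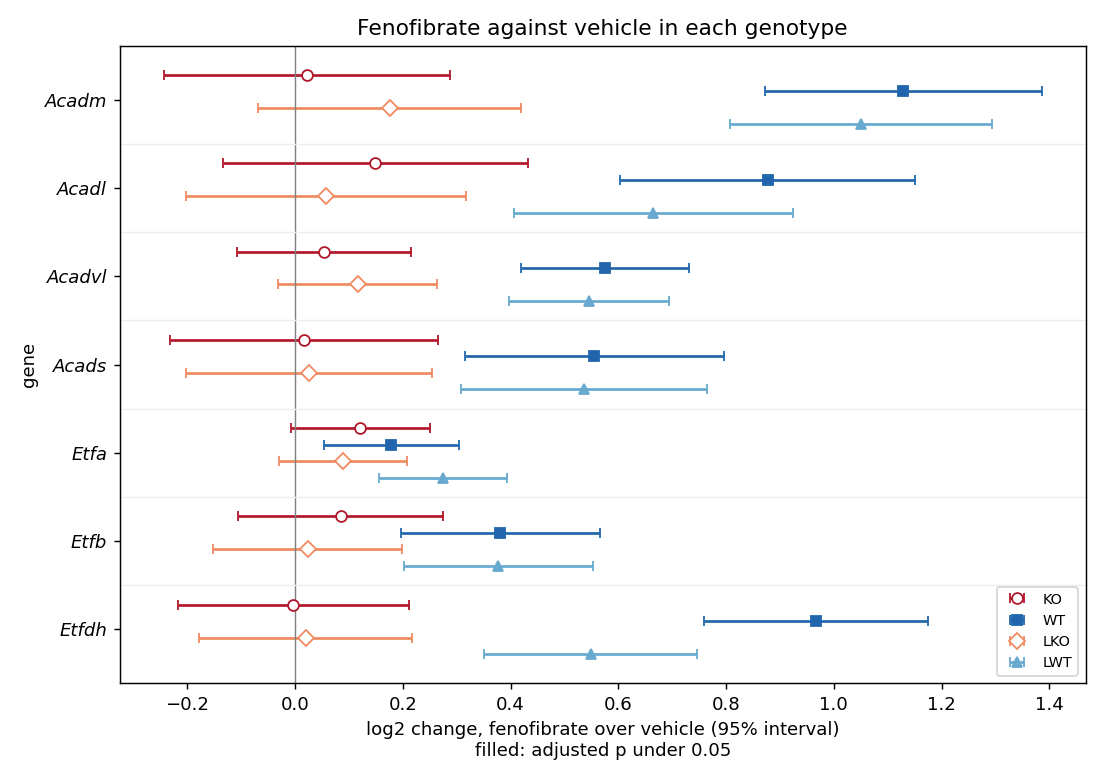
Log2 change, fenofibrate over vehicle (horizontal axis), of each gene (rows) in KO, WT, LKO and LWT mice, with 95% intervals from limma; filled symbols passed the threshold. All intervals of the WT and LWT lines lie above 0 and all intervals of the KO and LKO lines include 0, and for Etfa the intervals of the 4 genotypes overlap one another.

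The drug change in a knockout minus that in its control line was tested directly. In LKO against LWT it was lower for 5 of 7 genes, where 3.79% of all genes were called lower: Acadm by -0.88 ± 0.17 (adjusted p = 0.000973), Acadl by -0.61 ± 0.18 (0.0361), Acadvl by -0.43 ± 0.10 (0.00791), Acads by -0.51 ± 0.16 (0.0465) and Etfdh by -0.53 ± 0.14 (0.0144). In KO against WT it was lower for the same 5 genes, where 5.65% of all genes were called lower: Acadm by -1.11 ± 0.18 (adjusted p = 9.46e-05), Acadl by -0.73 ± 0.19 (0.012), Acadvl by -0.52 ± 0.11 (0.00174), Acads by -0.54 ± 0.17 (0.0365) and Etfdh by -0.97 ± 0.15 (3.31e-05). The ETF subunits did not pass in either. Etfb differed by -0.35 ± 0.12 (adjusted p = 0.0774) in LKO against LWT and by -0.30 ± 0.13 (0.146) in KO against WT. Etfa differed by -0.19, with a 95% interval of -0.35 to -0.02 (adjusted p = 0.191), in LKO against LWT and by -0.06, with an interval of -0.24 to 0.12 (adjusted p = 0.737), in KO against WT. The Acads call was lost without any 1 of 21 mice in LKO against LWT (adjusted p up to 0.112) and of 9 in KO against WT. The Acadl call was lost without any 1 of 11 mice in LKO against LWT, and in KO against WT without KO vehicle replicate 3 (adjusted p = 0.0611). Of 12 other settings, in LKO against LWT 3 lost the Acads call, 2 the Acadl call and 1, the authors' value table, the Etfdh call (-0.55, adjusted p = 0.127). In KO against WT 4 lost the Acads call, 3 the Acadl call and 1, the replicate block, the Acadvl call (adjusted p = 0.0506). Without the 3 arrays of slide 1 the count in KO against WT was again 5 of 7. The drug change in KO minus that in LKO passed for 0 of 7 genes, where 0% of all genes passed. An unadjusted p under 0.05 was found for 0 of 7, and for 1491 of 15930 genes.

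Without the drug, the 7 genes were lower in liver-knockout mice than in their controls. On vehicle 7 of 7 were lower in LKO than in LWT mice, where 4.31% of all genes were called lower, with a median log2 change of -1.03 against an all-gene median of -0.01. In 7 of 7 every LKO mouse lay below every LWT mouse, as in 7.97% of all genes. Etfdh differed most, by -1.95 ± 0.10 (adjusted p = 5.37e-14, 3.87-fold lower). It read 4.37, 4.29, 4.31 and 4.35 in LKO mice on vehicle, against 6.19, 6.16, 6.35 and 6.43 in LWT mice on vehicle. The LKO mice were tightly grouped, with an SD of 0.03, and 99.5% of all genes had a higher fitted change in this comparison.

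Acadvl came next at -1.36 ± 0.08 (adjusted p = 1.17e-13), with 6.61 ± 0.05 in LKO and 7.97 ± 0.12 in LWT mice (SD, n = 4 each). Acadl fell by 1.18 on the log2 scale (SE 0.13, adjusted p = 2e-07), Etfb by 1.03 (SE 0.09, 1.39e-09) and Acads by 0.97 (SE 0.12, 7.07e-07). Acadm, which had responded most to the drug, was here among the smaller differences at -0.67 ± 0.13 (adjusted p = 0.000608). Etfa was again the smallest at -0.36 ± 0.06 (adjusted p = 0.000154), and its dimmer probe gave -0.38 ± 0.11 (adjusted p = 0.0306).

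In the whole-body knockout on vehicle, 6 of 7 genes were lower than in WT mice, where 16.1% of all genes were called lower, and in the same 6 every KO mouse lay below every WT mouse, as in 14.9% of all genes. Etfdh read 4.18, 3.94 and 4.24 in KO mice, against 5.55, 5.70, 5.94 and 6.09 in WT mice. No KO mouse came near the WT range, and the change was -1.70 ± 0.11 (adjusted p = 9.9e-13). Acadvl fell by 1.24 on the log2 scale, Etfb by 1.05, Acadl by 0.97 and Acads by 0.92, with adjusted p between 1.84e-12 and 8.42e-06. Etfa fell by 0.51 (SE 0.07, adjusted p = 8.25e-07), a call lost with the replicate number as a block (adjusted p = 0.0887), and its dimmer probe gave -0.40 ± 0.11 (adjusted p = 0.00962).

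Acadm was the exception, with 7.09, 6.67 and 6.53 in KO mice on vehicle, against 6.69, 6.80, 7.02 and 7.13 in WT mice on vehicle. The groups overlapped, and the highest KO mouse and the lowest WT mouse were both read on slide 1, the only slide that holds both groups. Over all mice the change was -0.15 ± 0.14 (adjusted p = 0.445). Without the 3 arrays of slide 1 it was -0.38 (adjusted p = 0.0401), and 7 of 7 genes passed. The change in KO against WT minus that in LKO against LWT was 0.52 ± 0.18 for Acadm (adjusted p = 0.0814), and 0.28 without those arrays (adjusted p = 0.329). That difference passed under quantile normalization, under normexp, in the authors' value table and with slide as a block. As fitted, 0 of the 7 passed that comparison, in which 8.31% of all genes did. An unadjusted p under 0.05 was found for 1 of 7, Acadm, and for 3552 of 15930 genes.

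Markers of other cells were summed for KO and WT mice on vehicle. The Kupffer cell and red blood cell sums overlapped between these groups. The summed level of 7 Kupffer cell and macrophage markers was 7.52, 8.91 and 6.85 in the KO mice on vehicle, against a range of 6.63 to 7.19 in the WT mice on vehicle, and 2 of 7 were called higher, where 14% of all genes were. Leaving out the KO mouse at 8.91 left 6 of 7 genes called. Red blood cell markers summed to between 7.53 and 8.79 in KO mice on vehicle and between 7.23 and 7.73 in WT mice on vehicle, and 0 of 3 were called. Lymphocyte and neutrophil markers summed to between 3.10 and 4.61 in KO mice on vehicle and between 2.98 and 3.04 in WT mice on vehicle, with no overlap, and of 5 tested 2 were called higher and 1 lower. The sum of 2 adipocyte markers was -4.04 to -2.94 in KO mice on vehicle and -2.51 to -2.01 in WT mice on vehicle, again with no overlap, and 0 of 2 were called. The part of these cells in the result was not tested.

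On fenofibrate the 7 genes were again lower in knockout mice than in their controls. In LKO against LWT mice 7 of 7 were lower, where 18.3% of all genes were called lower, with a median of -1.54. In KO against WT mice 7 of 7 were lower, where 22% were, with a median of -1.45. In both, every knockout mouse lay below every control mouse for 7 of 7 genes, as in 15% and 18.1% of all genes. These comparisons share the fenofibrate mice of the drug comparisons, so they restate part of the same values. Etfdh was 5.59-fold lower in LKO than in LWT mice (-2.48 ± 0.09, adjusted p = 1.6e-18) and 6.38-fold lower in KO than in WT mice (-2.67 ± 0.10, adjusted p = 5.42e-19). Acadm, with the overlap on vehicle, was lower by -1.54 ± 0.11 in LKO (adjusted p = 4.19e-12) and by -1.25 ± 0.12 in KO (adjusted p = 7.28e-10). Etfa differed by -0.55 ± 0.06 in LKO and -0.57 ± 0.06 in KO, with adjusted p of 2.95e-09 and 2.93e-09. The knockout difference in KO minus that in LKO passed for 0 of 7 genes on fenofibrate, where 12.2% of all genes passed. At an unadjusted p under 0.05 it was 0 of 7, and 3971 of 15930 genes.

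**Figure D3:**
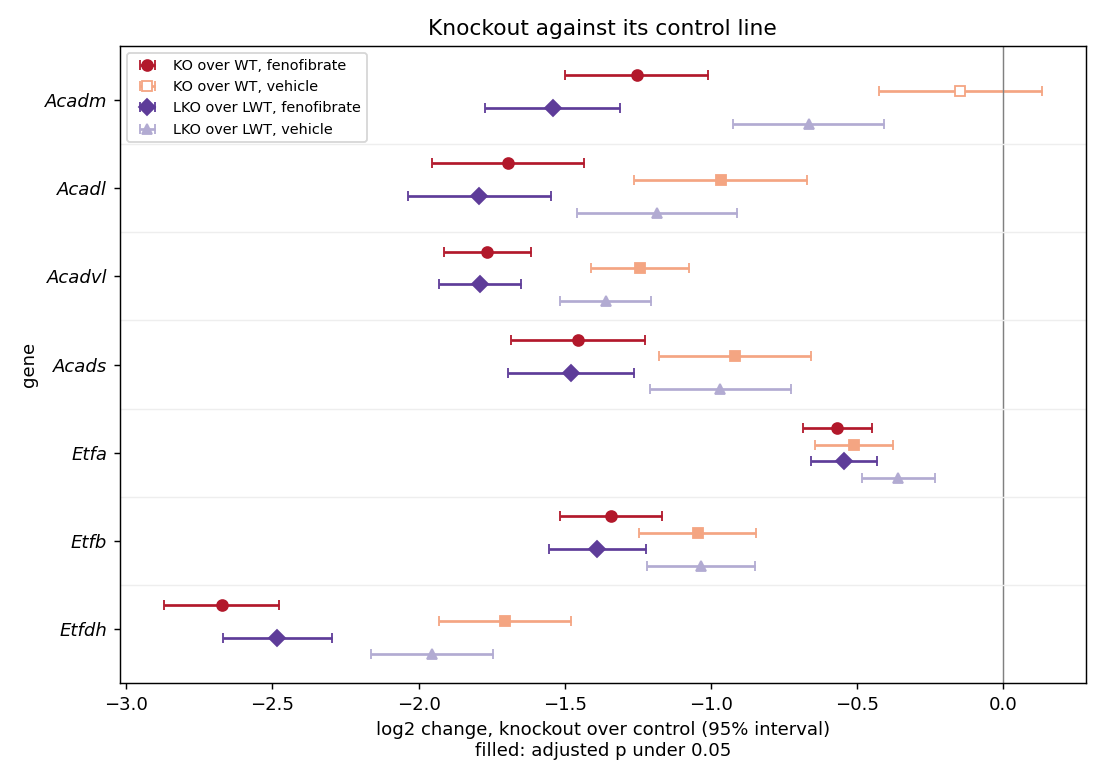
Log2 change, knockout over its control line (horizontal axis), of each gene (rows) on fenofibrate and on vehicle, with 95% intervals from limma; filled symbols passed the threshold. Etfdh lies farthest to the left in all 4 comparisons, Etfa differs least except for Acadm in KO against WT mice on vehicle, the only open symbol.

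The order of the 8 groups was nearly the same for every gene. The 4 knockout groups came lowest, then the vehicle groups of the control lines, then their fenofibrate groups, with LWT on fenofibrate highest for all 7. Between the highest knockout group and the lowest control group the step was 1.47 for Etfdh, 1.18 for Acadvl, 0.93 for Etfb, 0.81 for Acads, 0.79 for Acadl and 0.27 for Etfa, and those neighbouring groups did not overlap. For Acadm the step was 0.13, its neighbours overlapped, and 5 of the 17 control mice lay at or below the highest of 17 knockout mice. For 5 genes the neighbours among the 4 knockout groups overlapped throughout, and the exceptions were KO vehicle below LKO vehicle for Etfa and KO vehicle below LKO vehicle for Etfdh. Among the 8 group means Etfdh spanned 2.72 log2 units, Acadl 1.97, Acadvl 1.91, Acadm 1.72, Acads 1.58, Etfb 1.5 and Etfa 0.75.

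The control lines differed from each other in 1 gene. On vehicle Etfdh was lower in WT than in LWT mice by -0.46 ± 0.10 (adjusted p = 0.0185), the 1 of 7 that passed, where 0.477% of all genes were called lower, and its WT and LWT mice did not overlap, as in 3.3% of all genes. This call was lost in 5 of 12 other settings and without any 1 of 4 mice (replicates 1 and 2 of WT and 3 and 4 of LWT). It was lost in the authors' value table (-0.25, adjusted p = 0.601), with its own groups only (adjusted p = 0.214) and with the replicate number as a block (adjusted p = 0.119). It was also lost without the 3 arrays of slide 1 (-0.37, adjusted p = 0.106) and with the median of each array (adjusted p = 0.0513). On fenofibrate 0 of 7 passed, where 0.527% of all genes did. An unadjusted p under 0.05 was found for 0 of 7, and for 1573 of 15930 genes. Etfdh differed by -0.04 with a 95% interval of -0.24 to 0.15.

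Over the 34 arrays the levels of the 7 genes ran together, with Pearson r between 0.865 and 0.991 for the 21 pairs (median 0.961). These r carry the group differences. With each group's mean removed they ran from -0.408 for Acadl and Acads to 0.721 for Acadl and Etfdh (median 0.487), in points that share arrays and slides. The genes outside the set whose pattern was most like its mean were Hadhb (r = 0.995), Hsd17b4 (0.992), Acot8 (0.992), Eci1 (0.992), Acad11 (0.990), Dhrs4 (0.990), Slc25a20 (0.990), Ddhd2 (0.989), Nfe2l1 (0.987) and Abcd3 (0.986). Hadhb encodes the beta subunit of the trifunctional protein, which carries out the steps after the long-chain dehydrogenases. Among single genes Etfdh ran closest to Slc25a20 (0.997) and Cpt2 (0.992), both of the carnitine route of acyl groups into the matrix, and Acadvl closest to Etfb (0.991). Acadm, the gene with the least like pattern, had Cbfa2t3 (0.974) as its nearest.

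Other genes of the pathway were read from lists chosen by function. Their counts stand beside 10.1% of all genes called higher with fenofibrate in WT and 10% in LWT, and beside 4.31% called lower on vehicle in LKO than in LWT and 16.1% in KO than in WT. The carnitine shuttle, which brings acyl groups to the dehydrogenases, had 6 of 6 genes called higher with fenofibrate in WT and 5 in LWT, and 6 of 6 lower in LKO than in LWT on vehicle and 4 in KO than in WT. Its median change with the drug in WT was 1.41, and its median difference in LKO against LWT on vehicle was -1.70. Slc25a20, the carnitine-acylcarnitine carrier, changed by 1.15 with the drug in WT and by -2.44 in LKO against LWT on vehicle, and Cpt2 by 0.93 and -1.86. Cpt1b changed by 2.03 and -1.12, and Cpt1a, the liver form of the outer-membrane transferase, by 0.25 and -0.27.

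The later steps of mitochondrial beta-oxidation had 6 of 8 genes called higher with the drug in WT (median 0.71) and in LWT, where 10.1% and 10% of all genes were, and 7 of 8 lower in both knockouts on vehicle, where 4.31% were in LKO and 16.1% in KO (median -0.94 in LKO against LWT). Hadhb changed by 1.03 with the drug in WT and by -1.24 in LKO against LWT on vehicle, and Hadha, the alpha subunit of the same protein, by 0.77 and -0.94. Hadh changed by 0.56 and -0.57, and Echs1 had values of 0.24 and -0.15 that did not pass.

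The other dehydrogenases that feed ETF, many of them of amino acid and choline breakdown, were read beside the 4 described above. With the drug 5 of 11 were called higher and 1 lower in WT, where 10.1% and 11.3% of all genes were, with a median of 0.08, and 5 of 11 higher in LWT. On vehicle 1 of 11 was lower in LKO than in LWT, where 4.31% of all genes were and the median was -0.06, and 3 of 11 in KO than in WT, where 16.1% were. Acad11, an acyl-CoA dehydrogenase, changed by 0.66 with the drug in WT and by -0.81 in LKO against LWT on vehicle. Acad8, of valine breakdown, changed by 0.48 with the drug in WT, with a value of -0.13 in LKO against LWT that did not pass. Acad9, a complex I assembly factor, changed by 0.41 with the drug in WT, and Acad10 had a value of -0.20 there that did not pass.

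Of the genes for ETF modification and FAD supply, 4 of 6 tested were called higher with the drug in WT and in LWT, and 2 of 6 lower in LKO than in LWT on vehicle, beside the same 10.1%, 10% and 4.31% of all genes. Etfrf1, a regulator that binds ETF, changed by 0.75 with the drug in WT and by -0.44 in LKO against LWT on vehicle. Flad1, which makes FAD, changed by 0.27 with the drug in WT, and Etfbkmt, the methyltransferase of the ETF beta subunit, had -0.21 there and Rfk 0.17, neither of which passed. Of the ubiquinone synthesis genes, which make the acceptor of the ETF dehydrogenase, 5 of 9 tested were called higher in WT and 7 in LWT, and 2 of 9 were lower in LKO than in LWT on vehicle, where 4.31% of all genes were. Coq4 changed by 0.95 and Coq2 by 0.31 with the drug in WT, and Pdss1 had 0.20 and Pdss2 0.15, which did not pass. In LKO and in KO mice 0 genes of these 5 lists were called with the drug, where 0% of all genes were in LKO and 0.0126% in KO.

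**Figure D4:**
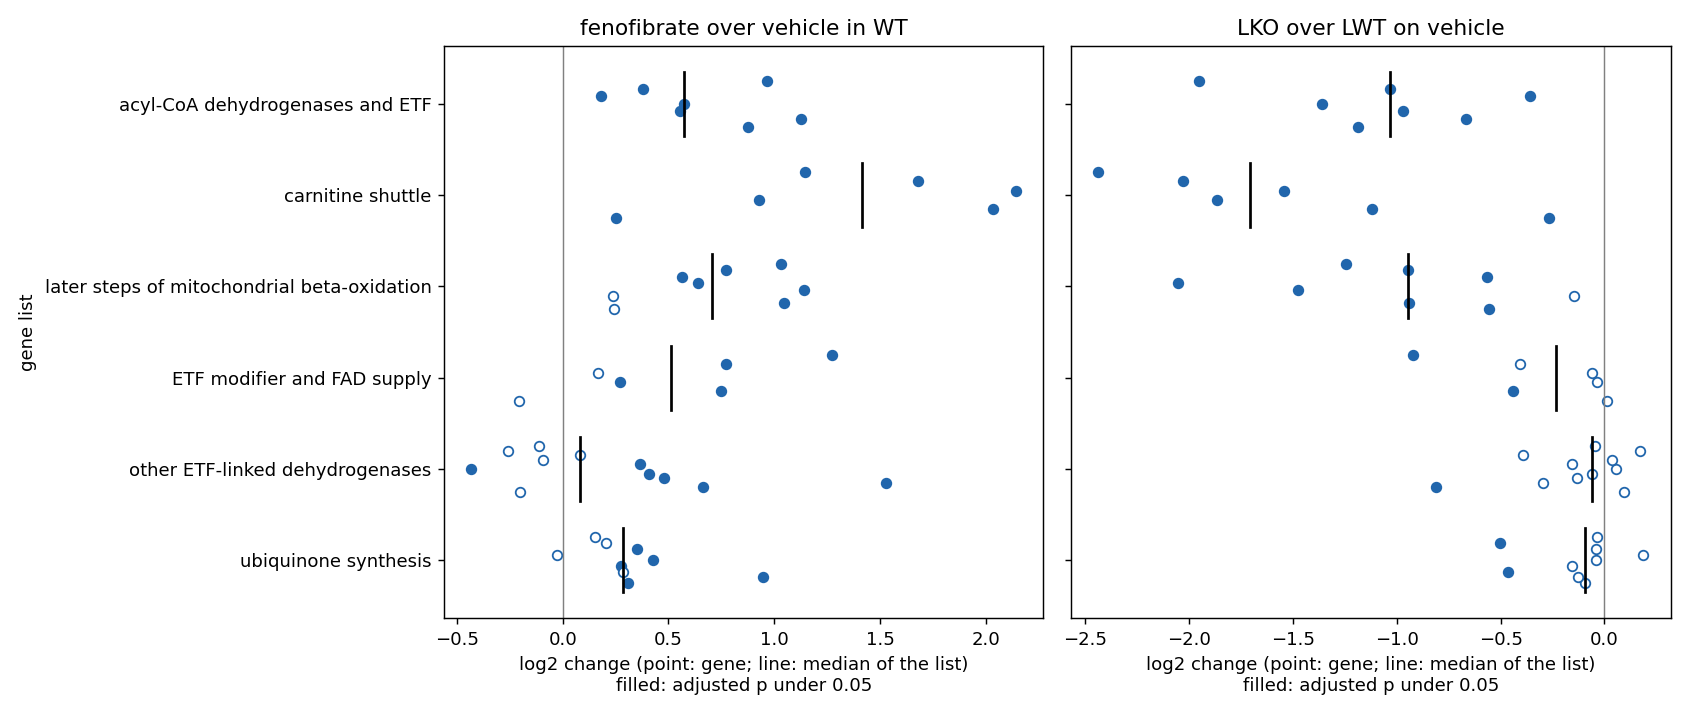
Log2 change (horizontal axes) of every tested gene of the set and of 5 pathway lists (rows), for fenofibrate over vehicle in WT mice and for LKO over LWT mice on vehicle; points are genes, filled where they passed the threshold, and vertical lines are list medians. The medians of the set and of the carnitine and later-step lists lie at 0.57, 1.41 and 0.71 with the drug, and that of the other ETF-linked dehydrogenases at 0.08.

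The sum of 2 adipocyte markers was higher with the drug in the control lines. Of 5 listed, Lep was above background on 0 arrays, Adipoq on 7 and Plin1 on 20, and these were not tested. The sum of the 2 tested (Retn and Cfd) was 1.62 to 3.87 in WT mice on fenofibrate and -2.51 to -2.01 in WT mice on vehicle. Of these 2, 1 was called higher in each control line, where 10.1% of all genes were called higher in WT and 10% in LWT. In KO against WT mice on fenofibrate 4 of 5 cholangiocyte markers were called lower and 2 of 3 red blood cell markers higher, where 22% of all genes were called lower and 21.2% higher. The adipocyte sum was -3.92 to 0.90 in KO mice on fenofibrate, against 1.62 to 3.87 in WT mice on fenofibrate, and -4.09 to -2.82 in LKO mice on fenofibrate, against 0.60 to 2.89 in LWT mice on fenofibrate. These groups did not overlap, and 1 of the 2 markers was called lower in each comparison. On fenofibrate 2 of 5 lymphocyte and neutrophil markers were called higher and 2 lower in KO than in WT mice. The part of these cells in the results was not tested. Within slides that hold both groups, every called difference between 2 groups had its overall sign (the differences between drug changes were not read within slides). This held for 7 of 7 values for the drug in WT on 1 slide, 14 of 14 in LWT on 2 slides, and 21 of 21 for LKO against LWT on each treatment on 3 slides. It held for 6 of 6 for KO against WT on vehicle and 7 of 7 on fenofibrate, each on 1 slide, and 2 of 2 for WT against LWT on vehicle on 2 slides. The KO against WT values on vehicle came from slide 1, with 1 mouse per group. Acadm, not called and so not counted, was higher there in the KO mouse by 0.40.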

How the data were processed

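Spot intensities on a linear scale were deposited by the authors for 34 one-colour Agilent arrays, the output of Agilent Feature Extraction (version 10.10.1.1, per the file headers), with probes placed on mm9. The authors also deposited a table of log2 values for 32446 probes, in which every column had a median of 7.63; the submitters' processing notes name limma. Its columns correlated with the scanner values at 0.993 on slide 1 and at no less than 0.9996 on the other slides, for a reason not given in the sources used here. The series text speaks of more samples than the 34 that its group sizes and the arrays add up to.

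Here, control and outlier spots were left out (87 values missing in the tested genes), replicate spots were averaged, and each array's 75th percentile was subtracted from log2 processed intensity. A probe entered if 1 group or more had it well above background throughout (31058 did), and the brightest stood for a gene. Names came from the files' accessions and symbols through a RefSeq table of a later build. The 8 groups were fitted in 1 means model with limma 3.58.1 in R 4.3.3, without covariates, with 16 contrasts adjusted by Benjamini-Hochberg, and the fit was tested on simulated data. Each array is a separate mouse per the series text. The genes and lists were chosen with earlier results of these data known. The text names the 7 genes, the 10 genes most correlated with their mean over 34 arrays, the nearest genes of single members, and up to 4 tested genes of each list in the order of the list; 1 list is not reported here.

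Replicate numbers in the labels were checked for pairing by correlating, for mice of 1 number, how they deviate from their groups. Every r passed 0.1 for the 3 vehicle comparisons (LKO with LWT 0.119 to 0.29, KO with WT 0.121 to 0.402, WT with LWT 0.103 to 0.24) and not for the others. The reported fit does not use this pairing of the vehicle mice. In the limma fit with the replicate number as a block, 2 vehicle calls were lost. These were Etfa in KO against WT (adjusted p = 0.0887) and Etfdh in WT against LWT (adjusted p = 0.119). The alternatives changed the normalization, background correction, source of values, filter, outlier spots, probe choice, arrays in the fit, slide block and replicate block, and left out each mouse.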

Additional observations from a re-analysis of the deposited data

Results flagged for a closer look

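In 10 values the drug change differed between a knockout and its control line by the test of the difference itself. In LKO minus LWT these were -0.88 for Acadm, -0.61 for Acadl, -0.43 for Acadvl, -0.51 for Acads and -0.53 for Etfdh. In KO minus WT they were -1.11 for Acadm, -0.73 for Acadl, -0.52 for Acadvl, -0.54 for Acads and -0.97 for Etfdh. Among 56 groups of values, 1 held a mouse far from the rest: Acads read 2.72 in LKO vehicle replicate 2, where the nearest other mouse read 2.54. Chance flags about 1 in 20 such groups.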

How the results depend on the processing

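Of 112 values (7 genes in 16 comparisons) 52 were called, and none of these changed sign under any of 12 other settings or without any 1 of 34 mice. The call held throughout for 40 of the 52. Of the 60 values not called, 29 changed sign somewhere, each of them within 0.22 of 0 as reported, and 4 were called somewhere. With the replicate number as a block the count was 0 for WT against LWT on vehicle and 2 for the drug change in KO minus WT, and it was 5 for fenofibrate in WT and in LWT (Etfa and Etfb lost) and 5 for KO against WT on vehicle. In the drug comparisons the numbers do not pair the mice. WT against LWT on vehicle had 0 calls also with the median of each array, the authors' table, its own groups only, and without slide 1, a setting added after seeing the data. The drug change in LKO minus LWT had 3 calls with the median of each array and with no background filter, and in KO minus WT 3 with the authors' table and with its own groups only. The knockout difference on vehicle in KO minus LKO had 1 call (Acadm) under quantile normalization, under normexp, in the authors' table and with slide as a block. With the mean of all detected probes, which among the 7 genes alters only Etfa, 14 pairs in WT and 13 in LWT passed the test of unequal change, against 0 and 0. Leaving out 1 mouse gave 6 to 7 calls for fenofibrate in WT, 0 to 1 for WT against LWT on vehicle, 3 to 5 for the drug change in LKO minus LWT, 4 to 5 in KO minus WT, 0 to 1 for the knockout difference on vehicle (1 without KO vehicle replicate 3) and 0 to 13 unequal pairs in LWT (12 without LWT fenofibrate replicate 1, 13 without replicate 4). Unequal change in WT was not run without 1 mouse, where no p could pass. The causes were not tested. Scaling by the median moved the median of all genes by over 0.1 only for the drug change in KO minus LKO, to -0.17.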
